A study of Mus musculus with 27 samples.

Results

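This account follows 36 genes of Kupffer cells and other macrophages through the reproductive cycle of the mouse liver. They were taken from a list of gene symbols, matched by identifier to the deposited tables, which hold 51826 gene identifiers. All 36 passed the filter on low counts and stand among the 16428 genes tested. By role, 12 mark resident Kupffer cells, 16 are shared by most macrophages, 5 mark monocytes and 3 mark lipid-associated macrophages. The list holds known cell-type markers, and no threshold on values of these libraries chose them. Earlier results of these data were known when the list was made, so that comparisons may repeat patterns already seen.

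RNA came from whole livers of wildtype female BALB/c mice, an inbred strain, with 1 library per animal (27 animals). Nulliparous animals had never been pregnant (NUL, 4 animals), and 3 animals were taken at day 10 of lactation (LAC). Involution days are counted from weaning, and 3 animals were taken at day 2 (ID2), 4 at day 4 (ID4), 6 at day 6 (ID6) and 3 at day 8 (ID8). The regressed stage (REG) holds 4 animals taken 4 weeks after their litters were weaned. Apart from breeding, equalised litters and weaning at 10 to 14 days of lactation, no agent or allele separates the groups. Breeding began when females were 10 to 12 weeks old, and age was matched between groups.

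Kupffer cells are the macrophages that live in the liver sinusoids. They take up bacteria, ageing red cells, lipoproteins and dying cells from portal blood, and they are maintained by the growth factor receptor CSF1R and its ligands. Resident Kupffer cells carry receptors that blood monocytes lack, among them CLEC4F and TIMD4. Monocytes enter from blood through CCR2 and can take on the resident programme when places in the sinusoid become free. Lipid-associated macrophages, marked by TREM2 and GPNMB, appear in fatty or injured liver. In whole liver, fewer cells of a type and less RNA per cell cannot be told apart, and this holds for every level below.

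Estimated counts summed to between 41120650 and 75664540 per library. Levels are in CPM, counts relative to the total of their library after the TMM scaling described below. Markers of hepatocytes summed to 93702 to 121018 CPM in NUL, 181813 to 225797 in LAC and 136093 to 149012 in ID2, so that the sum in LAC lay above both. The sum was led by Alb, at 4061470 to 11819200 counts per library. By the median over these 6 genes of the ratio to the NUL mean, LAC (1.115 to 1.145) overlapped NUL (0.8645 to 1.127) and ID2 (1.135 to 1.25). Pancreatic enzyme genes summed to 1047 CPM in ID2_31 and 76.9 CPM in ID4_15, against 5.94 to 31.2 CPM in the other 25 libraries. Red cell markers (4 globin genes and Alas2, of heme synthesis) summed to 768 to 1016 CPM in LAC, to 335 to 712 in NUL and to 19.9 to 35.0 CPM in ID8. The title of each animal carries a number, and what it stands for is not given. Of the 7 animals numbered under 200, 3 are the whole ID8 group, 2 are in ID2 and 2 in ID4, so that within ID8 the numbering and the stage cannot be told apart.

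Stretches upstream of 4 resident Kupffer genes are shown as examples. Whether their letters relate to the levels over the stages was not tested. RefSeq on GRCm38.p6 gave a promoter for 28 of the 36. Each stretch is the 250 bases before the start annotated by RefSeq, read 5′ to 3′ on the gene's strand, which is the minus strand for all 4. By GENCODE, the annotation used for gene positions, Clec4f starts at 83656187 and C1qc at 136893065, inside their stretches. Capitals mark GAGGAA or, from the other strand, TTCCTC, the core letters of the PU box bound by PU.1, the macrophage transcription factor encoded by Spi1. Clec4f lies at chr6:83656117-83656366, Vsig4 at chrX:96293439-96293688, C1qb at chr4:136886201-136886450 and C1qc at chr4:136892915-136893164.
Clec4f: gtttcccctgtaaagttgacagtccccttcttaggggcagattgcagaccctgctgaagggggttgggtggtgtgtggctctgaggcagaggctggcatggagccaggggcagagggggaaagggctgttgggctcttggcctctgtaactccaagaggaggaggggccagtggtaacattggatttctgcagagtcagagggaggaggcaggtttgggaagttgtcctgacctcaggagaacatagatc
Vsig4: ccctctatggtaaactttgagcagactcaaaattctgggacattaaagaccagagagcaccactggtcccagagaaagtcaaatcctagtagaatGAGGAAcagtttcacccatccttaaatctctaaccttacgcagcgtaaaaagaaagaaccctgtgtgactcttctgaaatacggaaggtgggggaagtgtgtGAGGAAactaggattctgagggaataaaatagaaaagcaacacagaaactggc
C1qb: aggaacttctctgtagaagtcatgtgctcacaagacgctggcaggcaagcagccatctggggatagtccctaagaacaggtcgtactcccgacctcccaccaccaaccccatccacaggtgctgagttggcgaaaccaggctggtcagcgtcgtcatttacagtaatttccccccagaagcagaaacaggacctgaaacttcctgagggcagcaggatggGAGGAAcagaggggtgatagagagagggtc
C1qc: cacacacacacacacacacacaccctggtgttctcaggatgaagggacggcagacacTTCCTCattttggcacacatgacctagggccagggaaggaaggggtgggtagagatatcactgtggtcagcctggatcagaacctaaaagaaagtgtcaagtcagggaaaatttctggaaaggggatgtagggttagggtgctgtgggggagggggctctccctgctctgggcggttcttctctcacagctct
The core occurs 2 times in the Vsig4 stretch, 1 time each in those of C1qb and C1qc, and 0 times in that of Clec4f. Over all members with an entry it was found in 17 of 31 promoters (54.8%), belonging to 15 genes, against 23.3% of all 32851 promoters of the same length. TATAAA, or TTTATA on the other strand, occurred in 1 of 31 (3.23%) against 12.4%. A match describes letters and not binding. The 3 C1q genes sit side by side on chromosome 4 between positions 136880129 and 136898803 of GRCm38, a span of 18.7 kb.

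Over the whole cycle, most of the 36 genes had their lowest stage mean in lactation and their highest at day 4 or 6 after weaning, and 0 were called different from nulliparous liver at 4 weeks. A joint test over the 7 stages (edgeR's quasi-likelihood test, Benjamini-Hochberg adjusted p under 0.05 over all tested genes) called 32 of the 36, where 27% of all tested genes (4431) were called. The called members were 12 of 12 resident genes, 15 of 16 shared macrophage genes, 4 of 5 monocyte genes and 1 of 3 lipid-associated genes. Mertk, Itgax, Trem2 and Cd9 were not called. The stage mean was lowest in LAC for 32 members (27.4% of all tested genes) and highest at ID4 or ID6 for 31 (27.4%). For 30 members both held, against 11.1% of all tested genes. The exceptions to a LAC minimum were Marco, Mpeg1, Cx3cr1 and Cd9.

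The same course was seen library by library. Each member's CPM, the share of a library's counts scaled by the trimmed mean of M-values (TMM), was divided by its NUL mean, and the median over the 36 was taken. That median ratio was 0.768, 0.662 and 0.607 in the 3 LAC livers and 0.900 to 1.07 in the 4 NUL livers. It was 0.848 to 1.04 in ID2, 1.25 to 1.52 in ID4, 1.13 to 1.53 in ID6, 0.953 to 1.14 in ID8 and 0.947 to 1.05 in REG. The LAC livers lay below, and all ID4 and ID6 livers above, every NUL liver.

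**Figure D1:**
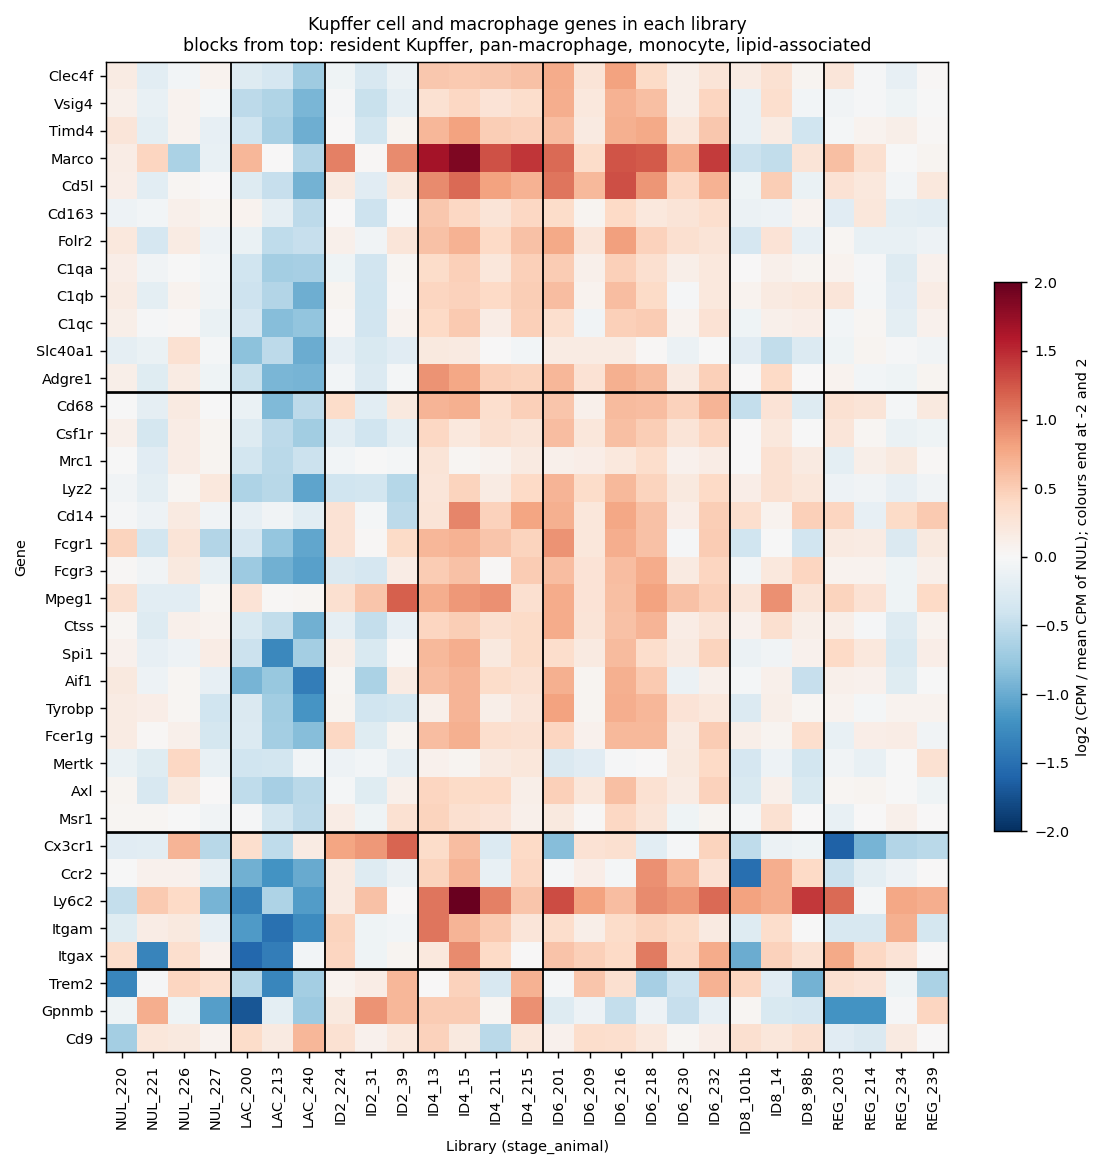
Colour shows, for each of the 36 genes (vertical axis) in each of the 27 libraries (horizontal axis), log2 of CPM over the mean CPM of NUL, with colours ending at -2 and 2. The 3 LAC columns are mostly blue and the 4 ID4 and 6 ID6 columns mostly red, while Marco, Cd163, Mpeg1, Cx3cr1 and Cd9 are not blue throughout in LAC.

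In lactating liver, 21 of the 36 members were lower than in nulliparous liver and 0 were higher, where 6.00% of all tested genes were lower. They were 8 of 12 resident, 11 of 16 shared macrophage, 2 of 5 monocyte and 0 of 3 lipid-associated genes. The median log2 fold change over the members was -0.61, against -0.01 over all tested genes. The 2 groups did not overlap for 18 members, all lower in LAC (11.2% of all tested genes). Without LAC_240, the liver with the lowest median ratio, 13 members were called.

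Other non-parenchymal and immune cell markers moved with this result. Of the stellate cell markers 3 of 5 fell in LAC (Dcn, Colec11 and Reln), of the sinusoidal endothelial markers 1 of 7 (Fcgr2b), of the dendritic cell markers 4 of 7, of the B cell markers 2 of 4, and of the T and NK cell, the tested neutrophil and the bile duct markers 1 of 6, 1 of 6 and 1 of 4. In all, 13 of these 39 genes fell and 0 rose, where 6.00% of all tested genes fell. Of the 39, 24 had an unadjusted p under 0.05 and 0 rose by DESeq2. Summed endothelial markers were 222 to 256 CPM in LAC and 281 to 321 in NUL, and summed stellate markers 215.7 to 227.3 and 281 to 321. The hepatocyte gene Alb, which encodes albumin, rose (log2 fold change 0.98, SE 0.14, adjusted p = 5.48e-05). CPM is here a share of the counts scaled by TMM, and the part of this shift in the lower macrophage levels was not tested.

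Between lactation and day 2 after weaning, 22 members rose and 0 fell (8.48% of all tested genes rose). These were 8 resident (Vsig4, Timd4, Cd5l, C1qa, C1qb, C1qc, Slc40a1 and Adgre1), 10 shared macrophage, 3 monocyte and 1 lipid-associated gene, and the median log2 fold change was 0.56. Against NUL, ID2 differed for 2 members: Mpeg1 was higher (2.32% of all tested genes) and Lyz2 lower (0.919%). Markers of other cell types moved with this result: of the 39 stellate, endothelial, immune and bile duct markers 6 rose and 0 fell from LAC to ID2, with 18 at an unadjusted p under 0.05 and 8 higher by DESeq2. They were Pecam1, Stab2, Kdr and Fcgr2b of the sinusoidal endothelium, Csf3r of neutrophils and Siglech of dendritic cells, and their part in the rise of the members was not tested. The count of 22 fell to 12 without ID2_224, 9 without ID2_39, 8 without LAC_213 and 11 without LAC_240, and with the title number (under 200 or not) as a covariate it was 7. In that fit the higher calls over all tested genes went from 1393 to 664, and members that lost the call kept positive log2 fold changes, such as 0.50 (SE 0.18) for Adgre1 and 0.61 (SE 0.20) for Fcgr3. The 2 calls against NUL fell to 0 without ID2_31, ID2_39 or NUL_227 and to 1 without ID2_224, NUL_221 or NUL_226.

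At day 4, 12 members stood above NUL and 0 below, where 2.64% of all tested genes were higher. Of these 8 were resident genes (Clec4f, Timd4, Marco, Cd5l, Cd163, Folr2, C1qa and Adgre1), 3 were shared macrophage genes (Cd68, Cd14 and Mpeg1) and 1 was the monocyte gene Ly6c2. All 36 fitted log2 fold changes were above 0, with a median of 0.43 against -0.02 over all tested genes. The groups did not overlap for 23 members (6.17% of all tested genes). Compared with ID2, 10 members rose at ID4 and 0 fell (0.645% of all tested genes rose). They were Clec4f, Vsig4, Timd4, Cd5l, Cd163, C1qa and Adgre1 of the resident genes, with Csf1r, Lyz2 and Ctss. Of the 39 stellate, endothelial, immune and bile duct markers 0 were called by edgeR, 5 had an unadjusted p under 0.05 and 1 was higher by DESeq2. The median stellate marker ratio to NUL was 0.777 to 0.890 in ID2 and 1.002 to 1.073 in ID4. Summed hepatocyte markers were 136093 to 149012 CPM in ID2 and 90867 to 104870 in ID4. The part of these shifts in the rise was not tested.

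Markers of other cell types were measured beside this at day 4. Of the 7 sinusoidal endothelial markers 0 were called against NUL, with 2 at an unadjusted p under 0.05 and 1 higher by DESeq2 (median log2 fold change 0.06), of the 5 stellate markers Reln fell and 0 rose, and of the 4 bile duct markers Sox9 fell and 0 rose. Of 7 dendritic, 6 tested neutrophil, 4 B cell and 6 T and NK cell markers, 0 were called by edgeR or DESeq2, with 6 of those 23 at an unadjusted p under 0.05. Among the 5 markers of peritoneal macrophages 0 were called by either tool, with 1 at an unadjusted p under 0.05, and Alox15 and Garnl3 stayed under 1 CPM in every library. Without ID4_15, NUL_221 or NUL_227 the count of 12 was 4, and with the title number as covariate it was 5 (Clec4f, Marco, Cd5l, Adgre1 and Cd14), the calls of Timd4, Cd163, Folr2, C1qa, Cd68, Mpeg1 and Ly6c2 being lost. Within ID4 the animals numbered 200 and over had median member ratios of 1.25 and 1.33, and the others 1.37 and 1.52. The 10 calls against ID2 fell to 2 without ID2_31, the library with the highest sum of pancreatic genes, and ID4_15 has the second highest. The part of that RNA in this comparison was not tested. All 4 ID4 libraries had 2 sequencing runs, against 1 of the 3 ID2 libraries. With the number of runs as covariate, Cd5l and Vsig4 lost their calls between ID2 and ID4. In the fit with the runs, genes called higher over all tested genes went from 106 to 63.

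Between days 4 and 6, 0 members differed by edgeR, with 2 at an unadjusted p under 0.05 and 0 by DESeq2, where 8.53% of all tested genes differed. Against NUL, 6 members were higher and 0 lower (0.402% of all tested genes were higher), namely Vsig4, Marco, Cd5l, Adgre1, Csf1r and Lyz2. Red cell markers shifted in the same comparison, from a sum of 335 to 712 CPM in NUL to 53.1 to 264 in ID6, and their part in the higher levels was not tested. This count was 2 without ID6_201, ID6_216, NUL_221 or NUL_227, 12 without ID6_209, 11 without ID6_230 and 14 by DESeq2. From day 6 to day 8, 9 members fell and 0 rose (1.75% of all tested genes fell). They were the resident genes Vsig4, Timd4, Marco, Cd5l, Folr2 and Slc40a1 with Axl, Fcgr1 and Cd68. Summed red cell markers were lower again in ID8, at 19.9 to 35.0 CPM, and their part in this fall was not tested. Since ID8 holds only animals numbered under 200 and ID6 only others, these groups alone cannot tell the numbering from the day. A covariate for the numbering rests on ID2 and ID4, which hold both ranges, and takes its effect as the same at each stage. Adding the title number as covariate left 0 members called by edgeR, and the count was 0 without ID8_101b and 1 without ID8_98b. In the fit with the covariate, genes called lower went from 287 to 1 over all tested genes, while the log2 fold changes of the 9 members stayed below 0, from -1.30 (SE 0.42) for Marco to -0.33 (SE 0.18) for Vsig4. Of the 6 ID6 libraries 4 had 2 sequencing runs, and of the 3 ID8 libraries 1. With the number of runs as covariate instead, Vsig4, Folr2 and Slc40a1 lost the call.

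At day 8 and at 4 weeks 0 members differed from NUL by edgeR or by DESeq2, with 3 and 1 of the 36 at an unadjusted p under 0.05. Of all tested genes 0.499% differed in ID8 and 0.0852% in REG. The median log2 fold change over the members was 0.06 in ID8 and 0.02 in REG. For Clec4f the difference of REG from NUL was 0.02 on the log2 scale, with a 95% interval from -0.22 to 0.27. Between REG and ID8 0 members differed by either tool, with 3 at an unadjusted p under 0.05 (0.0487% of all tested genes were called).

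**Figure D2:**
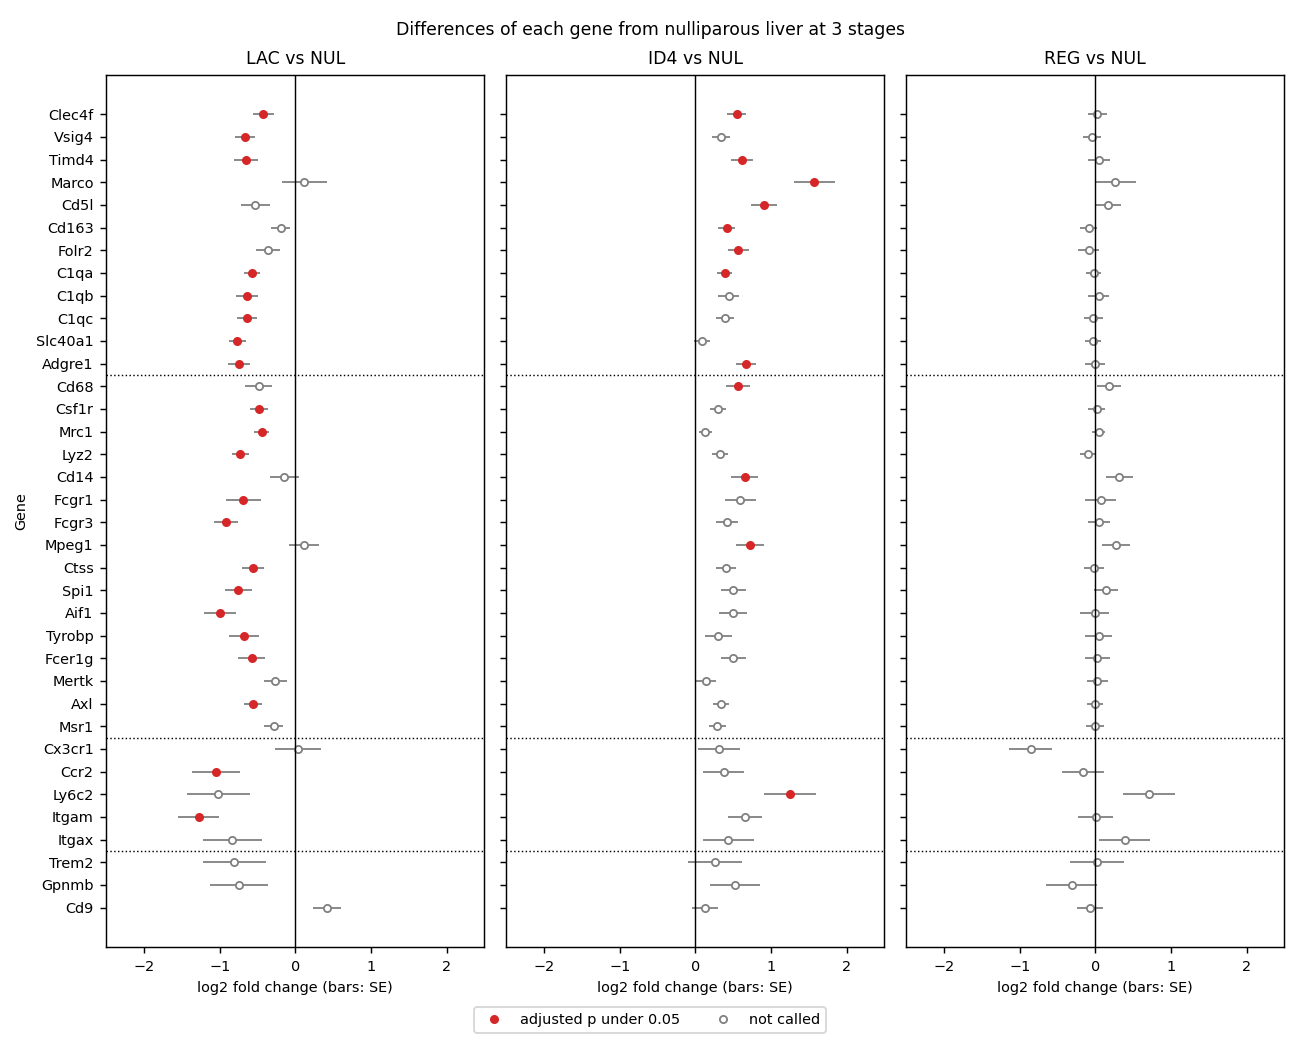
Points give the log2 fold change of each gene (vertical axis) against NUL in LAC, ID4 and REG, with bars of 1 SE and filled points for an adjusted p under 0.05. Points lie mostly left of 0 in LAC (21 called) and all right of 0 in ID4 (12 called), and 0 are called in REG.

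Levels between genes were compared in TPM, the authors' length-scaled value. In NUL the resident lectin Clec4f had the highest TPM of the 36, 141 ± 12.1 (SD, n = 4), followed by Slc40a1 at 104 ± 15.7 and Lyz2 at 95.8 ± 12.4. The TPM of C1qa, C1qb and C1qc was 75.9 ± 4.15, 71.7 ± 6.91 and 63.6 ± 3.82. Monocyte genes were at the other end, from Ly6c2 at 0.843 ± 0.326 TPM to Itgax at 0.230 ± 0.0952 TPM. Defining resident markers were thus present in every nulliparous liver, at higher TPM than the monocyte genes.

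The resident receptors that bind cells and microbes come first. Clec4f encodes a lectin found, in the mouse, on Kupffer cells. Its CPM was 207, 159, 179 and 195 in the 4 NUL livers, 154, 146 and 113 in the 3 LAC livers and 174, 149 and 171 in ID2. In ID4 it was 270.0, 265, 269 and 277, in ID6 it ran from 201.5 through a median of 231 to 324, and in ID8 and REG it was 207, 229 and 192 and 219, 182, 165 and 187. Every LAC liver was below every NUL liver, and every ID4 liver was above all NUL, LAC and ID2 livers. The log2 fold change was -0.43 (SE 0.14, adjusted p = 0.0436) for LAC and 0.54 (SE 0.13, adjusted p = 0.0114) for ID4 against NUL. The LAC call was lost in 5 of the 7 fits that left out 1 library (adjusted p up to 0.239 without LAC_240) and with RLE scaling or only the groups compared, and the ID4 call in 1 of the 8 (up to 0.0569 without NUL_221). Below, an adjusted p given as "up to" is likewise the largest with 1 library left out, where that ended the call, and other single libraries can end the same call.

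Vsig4 encodes a receptor that captures particles coated with complement C3 fragments. Its CPM was 34.1, 28.8, 33.4 and 31.2 in NUL, 22.2, 21.01 and 17.0 in LAC, 39.4, 42.2, 38.6 and 40.7 in ID4 and from 34.7 through a median of 45.5 to 52.5 in ID6. LAC and ID4 livers lay wholly below and wholly above NUL. The fall in LAC was -0.67 (SE 0.13, adjusted p = 0.00128) on the log2 scale and held with any library left out. Against NUL, ID4 did not pass the test (log2 fold change 0.34, SE 0.12, adjusted p = 0.109), and ID6 did (log2 fold change 0.48, SE 0.11, adjusted p = 0.0216; up to 0.119 without NUL_221).

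Timd4 encodes a receptor for phosphatidylserine on dying cells and marks long-lived Kupffer cells. In NUL its CPM was 9.25, 6.87, 8.29 and 7.04, in LAC 5.97, 5.003 and 4.02, in ID4 12.4, 13.8, 11.1 and 10.9 and in ID8 7.12, 8.78 and 5.98. The gene fell in LAC (log2 fold change -0.65, SE 0.16, adjusted p = 0.00797), stood above NUL at ID4 (log2 fold change 0.61, SE 0.15, adjusted p = 0.0127) and fell from ID6 to ID8 (log2 fold change -0.63, SE 0.15, adjusted p = 0.0172). Leaving out 1 library took the adjusted p up to 0.0698 without LAC_240, 0.0540 without NUL_221 and 0.129 without ID8_98b in these comparisons.

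Marco, a scavenger receptor for bacteria and particles, took the largest step of the 36 between NUL and ID4. Its CPM was 2.87, 3.51, 1.67 and 2.36 in NUL, 4.12, 2.61 and 1.73 in LAC, 5.24, 2.63 and 5.02 in ID2 and 8.27, 9.48, 6.26 and 7.01 in ID4, where each liver was above each NUL liver. In ID6 it ran from 3.34 through a median of 5.90 to 6.88, and in ID8 it was 1.94, 1.85 and 3.11. The log2 fold change of ID4 against NUL was 1.57 (SE 0.28, adjusted p = 0.00116) and held with any library left out. Unlike most resident genes, Marco had overlapping values in LAC and NUL (log2 fold change 0.12, SE 0.30, adjusted p = 0.867). From ID6 to ID8 it fell by 1.23 on the log2 scale (SE 0.29, adjusted p = 0.0177; up to 0.111 without ID8_101b).

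Cd5l encodes a protein that macrophages secrete into plasma and that binds IgM. CPM was 115, 90.7, 108 and 106 in NUL, 87.9, 76.2 and 54.3 in LAC and 118, 89.7 and 120.2 in ID2. It then stood at 203.2, 230.4, 184 and 169 in ID4 and from 141 through a median of 182 to 255 in ID6, so that all 10 of these livers exceeded every NUL liver. The log2 fold change against NUL was 0.91 (SE 0.17, adjusted p = 0.00239) at ID4 and 0.86 (SE 0.16, adjusted p = 0.00530) at ID6, and both calls held with any library left out. In LAC it did not pass (log2 fold change -0.53, SE 0.19, adjusted p = 0.0698).

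Among the remaining resident genes, Cd163 encodes the scavenger receptor for hemoglobin bound to haptoglobin. Cd163 was at 22.7, 23.5, 26.2 and 25.4 CPM in NUL and 35.5, 32.6, 29.4 and 32.7 in ID4, without overlap (log2 fold change 0.41, SE 0.11, adjusted p = 0.0364; up to 0.115 without ID4_13), and was not lower in LAC by the test (log2 fold change -0.19, SE 0.13, adjusted p = 0.378). Folr2, a folate receptor, was at 11.6, 7.94, 11.3 and 9.42 CPM in NUL and 15.1, 16.4, 13.2 and 15.05 in ID4 (log2 fold change 0.57, SE 0.14, adjusted p = 0.0194; up to 0.0832 without NUL_221). Its counts were partly shared with other genes in all 27 libraries. Slc40a1 encodes ferroportin, the iron exporter, which hepatocytes also use. Slc40a1 had the largest fall of the resident genes in LAC, from 226.98, 233.7, 318 and 251 CPM in NUL to 146, 179 and 129 in LAC (log2 fold change -0.77, SE 0.11, adjusted p = 6.08e-05), and was the resident gene closest to NUL at ID4 (295, 290.5, 259 and 247 CPM; log2 fold change 0.08, SE 0.10, adjusted p = 0.726). Its fall held with any library left out.

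C1qa, C1qb and C1qc encode the 3 chains of C1q, which starts the classical complement pathway. C1qa CPM was 53.5, 46.2, 48.6 and 46.7 in NUL, 36.9, 30.6 and 30.8 in LAC and 62.8, 67.8, 56.9 and 67.5 in ID4, with no overlap between these stages. In LAC the log2 fold change was -0.57 (SE 0.11, adjusted p = 9.63e-04) for C1qa, -0.64 (SE 0.15, adjusted p = 0.00604) for C1qb and -0.64 (SE 0.14, adjusted p = 0.00285) for C1qc. At ID4 the 3 chains had log2 fold changes of 0.39, 0.44 and 0.39 against NUL, of which C1qa passed (adjusted p = 0.0233, up to 0.0736 without NUL_221) and C1qb and C1qc did not (adjusted p = 0.0646 and 0.0709). Without LAC_240 the adjusted p of C1qb in LAC was 0.0547.

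Adgre1, the gene of the macrophage antigen F4/80, is expressed by macrophages of many tissues. CPM was 19.3, 14.95, 19.9 and 16.6 in NUL, 13.04, 9.37 and 9.31 in LAC, 17.0, 14.6 and 17.3 in ID2, 33.0, 30.4, 24.7 and 24.1 in ID4 and from 20.1 through a median of 26.0 to 28.9 in ID6. LAC lay below and ID4 above all NUL livers. The log2 fold change was -0.74 (SE 0.15, adjusted p = 0.00128) in LAC and 0.67 (SE 0.13, adjusted p = 0.00278) in ID4, and both calls held with any library left out and under all 8 other alternatives.

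**Figure D3:**
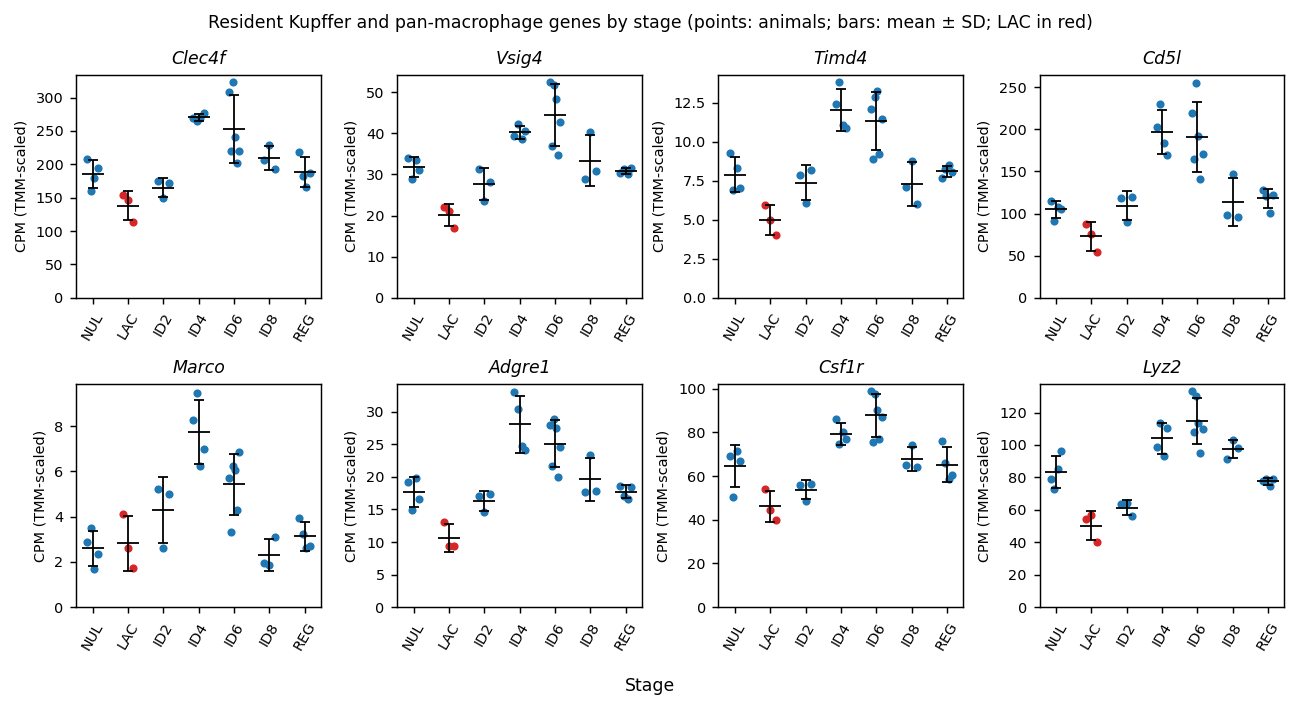
CPM (vertical axes, starting at 0) of 6 resident Kupffer genes and of Csf1r and Lyz2 is shown by stage, with 1 point per animal, the mean and bars of 1 SD. The LAC points, in red, are the lowest group in each panel except that of Marco, and the ID4 and ID6 groups are the highest.

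Of the 16 genes shared by macrophages, Csf1r encodes the receptor on which Kupffer cells depend. Csf1r CPM was 69.1, 50.3, 71.7 and 66.8 in NUL, 53.9, 44.7 and 39.8 in LAC and from 75.6 through a median of 88.7 to 99.2 in ID6, and every ID6 liver exceeded every NUL liver. It fell in LAC (log2 fold change -0.48, SE 0.12, adjusted p = 0.00882; up to 0.0744 without LAC_240) and was above NUL at ID6 (log2 fold change 0.45, SE 0.10, adjusted p = 0.0212; up to 0.153 without NUL_221). Spi1, the gene of PU.1, was at 6.87, 5.81, 6.06 and 7.17 CPM in NUL and 4.79, 2.66 and 4.05 in LAC (log2 fold change -0.76, SE 0.18, adjusted p = 0.00570; up to 0.0651 without LAC_213), and ID4 did not pass against NUL (10.2, 10.8, 7.40 and 8.41 CPM; log2 fold change 0.50, SE 0.16, adjusted p = 0.0674).

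Lyz2, the lysozyme gene of myeloid cells, had the smallest adjusted p of the 36 in the joint test, 7.12e-08 (edgeR). CPM was 78.9, 72.7, 85.3 and 96.3 in NUL, 54.5, 56.5 and 40.0 in LAC, 63.4, 64.4 and 56.0 in ID2, 98.9, 114, 93.2 and 110.4 in ID4 and from 95.2 through a median of 112 to 133 in ID6. It was the 1 member still lower than NUL at day 2, and all LAC and ID2 livers were below all NUL livers. The log2 fold change against NUL was -0.73 (SE 0.12, adjusted p = 1.58e-04) in LAC and -0.44 (SE 0.12, adjusted p = 0.0309) in ID2, and from ID2 to ID4 it was 0.76 (SE 0.12, adjusted p = 2.99e-04). The LAC and the ID4 call held with any library left out, while that of ID2 was lost in 5 of the 7 such fits (adjusted p up to 0.186 without ID2_39).

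The Fc receptors take up antibody-coated particles and signal through the γ chain encoded by Fcer1g. Fcgr3 CPM was 5.04, 4.74, 5.69 and 4.48 in NUL and 2.999, 2.57 and 2.34 in LAC (log2 fold change -0.92, SE 0.16, adjusted p = 4.93e-04), a call that held with any library left out, although its counts were partly shared with other genes in all 27 libraries. Fcgr1 fell in LAC (log2 fold change -0.69, SE 0.23, adjusted p = 0.0490), as did Fcer1g (log2 fold change -0.58, SE 0.18, adjusted p = 0.0357). Without LAC_240 their adjusted p was 0.215 and 0.174, and the call of Fcgr1 was lost under 6 of the 8 other alternatives. Tyrobp, the adaptor DAP12 that also serves TREM2, fell in LAC with an adjusted p of 0.0251, up to 0.167 without LAC_240. These 4 genes thus passed the test in LAC, 3 of them not with every library left out.

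Aif1, which encodes the actin-binding protein IBA1, had the largest fall of the shared genes in LAC, from 5.84, 4.80, 5.27 and 4.59 CPM in NUL to 2.69, 3.04 and 1.97 in LAC (log2 fold change -0.996, SE 0.21, adjusted p = 0.00248). Axl, a receptor that recognises dying cells through GAS6, went from 30.4, 23.4, 33.3 and 29.3 CPM in NUL to 20.5, 18.4 and 20.0 in LAC (log2 fold change -0.57, SE 0.12, adjusted p = 0.00240). Mrc1, the mannose receptor, which sinusoidal endothelium also carries, went from 56.5, 48.6, 63.2 and 59.3 to 44.1, 39.1 and 42.1 CPM (log2 fold change -0.45, SE 0.10, adjusted p = 0.00259). For all 3 genes LAC and NUL did not overlap, and the calls held with any library left out. Mertk, the related receptor for dying cells, was not called in the joint test (adjusted p = 0.196), with stage means from 9.58 CPM in LAC to 12.6 in ID4. Whether Axl and Mertk differ in their response was not tested.

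Mpeg1, which encodes the pore-forming protein perforin-2, did not pass the test in LAC (111, 93.1 and 94.3 CPM against 115, 79.2, 79.4 and 94.6 in NUL; log2 fold change 0.11, SE 0.20, adjusted p = 0.798). At ID2 it was at 115, 136 and 211.1 CPM, with 1 liver well above the others, and the higher level against NUL (log2 fold change 0.74, SE 0.20, adjusted p = 0.0385) was lost in 5 of the 7 fits that left out 1 library (adjusted p up to 0.318 without ID2_39) and under 6 of the 8 other alternatives. At ID4 it was at 153, 168, 173 and 115 CPM (log2 fold change 0.73, SE 0.18, adjusted p = 0.0239; up to 0.0819 without NUL_221). Cd14, the co-receptor for bacterial lipopolysaccharide, was higher at ID4 (5.56, 9.12, 6.38 and 8.02 CPM against 4.57, 4.31, 5.23 and 4.41 in NUL; log2 fold change 0.65, SE 0.18, adjusted p = 0.0306; up to 0.119 without ID4_15). Cd68, a lysosomal glycoprotein, was higher at ID4 too (log2 fold change 0.56, SE 0.16, adjusted p = 0.0412), a call lost in 7 of the 8 fits that left out 1 library (up to 0.121 without NUL_221) and under 4 of the 8 other alternatives. Ctss, the lysosomal protease cathepsin S, fell in LAC (log2 fold change -0.56, SE 0.14, adjusted p = 0.0107; up to 0.0968 without LAC_240) and rose from ID2 to ID4 (log2 fold change 0.68, SE 0.14, adjusted p = 0.0123; up to 0.112 without ID2_31). Msr1, a scavenger receptor for modified lipoproteins, was called between ID2 and LAC alone (log2 fold change 0.42, SE 0.13, adjusted p = 0.0297; up to 0.151 without ID2_39).

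Of the 5 monocyte genes, 2 fell in LAC and 1 was higher than NUL at ID4. Ccr2, the receptor that brings monocytes out of the marrow, was at 1.83, 1.95, 1.96 and 1.63 CPM in NUL and 0.948, 0.808 and 0.918 in LAC, without overlap (log2 fold change -1.04, SE 0.32, adjusted p = 0.0301; up to 0.117 without LAC_213). The Ccr2 call was lost in 6 of the 7 fits that left out 1 library and with limma on both log2 TPM scales. In ID8 it ranged widely, at 0.647, 3.06 and 2.43. Itgam, which encodes CD11b of monocytes and neutrophils, was at 1.02, 1.34, 1.38 and 1.08 CPM in NUL and 0.552, 0.430 and 0.502 in LAC, and its fall was the largest of the 36 (log2 fold change -1.28, SE 0.27, adjusted p = 0.00221). The Itgam call held with any library left out, but not with limma on log2(TPM + 1), where the log2 fold change was -0.11 (adjusted p = 0.565), or on log2(TPM + 0.1).

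Ly6c2, an antigen of inflammatory monocytes, was at 0.228, 0.457, 0.419 and 0.167 CPM in NUL and 0.664, 1.25, 0.636 and 0.466 in ID4, without overlap (log2 fold change 1.25, SE 0.35, adjusted p = 0.0355; up to 0.169 without ID4_15). The Ly6c2 call was lost in 4 of the 8 fits that left out 1 library and under 5 of the 8 other alternatives. Its counts were partly shared with other genes in 25 libraries. In LAC its fold change did not pass (log2 fold change -1.02, SE 0.42, adjusted p = 0.125). Cx3cr1, the fractalkine receptor, followed another course, with 1.26, 1.28, 2.35 and 1.003 CPM in NUL, 1.86, 1.03 and 1.64 in LAC, 2.54, 2.70 and 3.30 in ID2 and 0.481, 0.772, 0.982 and 1.01 in REG. It was highest in ID2, where every liver exceeded every NUL liver, and lowest in REG. Cx3cr1 was called in the joint test (adjusted p = 0.00239) but by edgeR in none of the 11 comparisons: ID2 against NUL gave 0.95 (SE 0.30, adjusted p = 0.0742) and REG against NUL -0.86 (SE 0.29, adjusted p = 0.391). DESeq2 called it higher in ID2 than in NUL (adjusted p = 0.0337) and in LAC (adjusted p = 0.0327). Itgax, the gene of CD11c of dendritic cells and some macrophages, reached at most 1.48 CPM in any library and was not called (adjusted p = 0.0694).

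Of the lipid-associated genes, Gpnmb alone was called. Gpnmb encodes a glycoprotein of lysosome-rich macrophages. Gpnmb was at 0.379, 1.08 and 0.744 CPM in LAC, 1.41, 2.30 and 1.96 in ID2 and 1.17, 2.04, 1.16 and 0.578 in NUL. ID2 lay above LAC without overlap (log2 fold change 1.36, SE 0.40, adjusted p = 0.0207; up to 0.111 without LAC_200), while NUL overlapped both. Trem2, the lipid-sensing receptor, ran from 0.258 to 0.431 CPM in LAC and from 0.512 to 1.03 in ID4 (joint adjusted p = 0.352). Cd9, a tetraspanin of many liver cells, was at 16.1 to 30.1 CPM in NUL and 29.1 to 40.7 in LAC (log2 fold change 0.42, SE 0.19, adjusted p = 0.167). Thus 0 of the 3 genes stood above NUL at any stage by edgeR or DESeq2, with Cd9 in LAC at an unadjusted p of 0.0345.

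**Figure D4:**
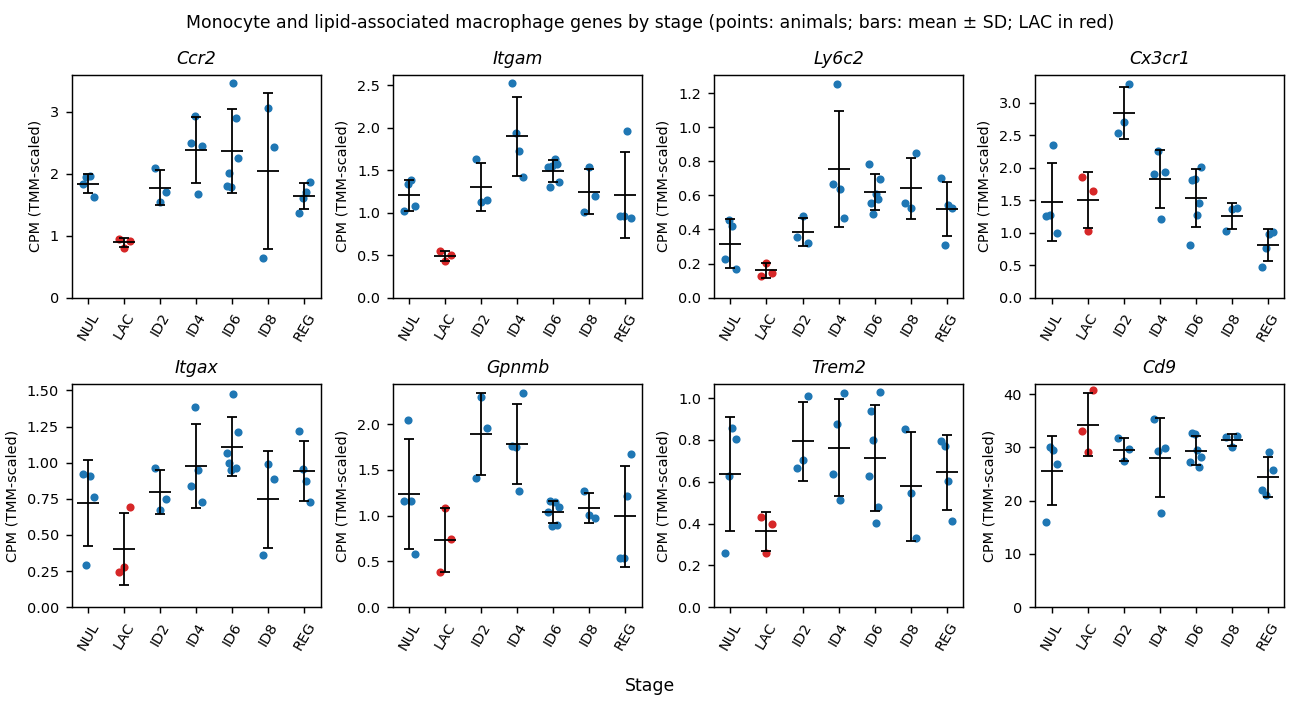
CPM (vertical axes, starting at 0) of 5 monocyte and 3 lipid-associated genes is shown by stage, with 1 point per animal, the mean and bars of 1 SD. Ccr2 and Itgam are lowest in LAC (red) without overlap with NUL, Cx3cr1 is highest in ID2, and the Trem2 values of NUL overlap those of each other stage.

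Ligands of these receptors were measured in the same livers. Csf1, which encodes the main growth factor for CSF1R, was at 14.3, 11.6, 14.0 and 13.3 CPM in NUL, 8.00, 8.10 and 9.95 in LAC and 13.8, 10.1 and 16.9 in ID2. All LAC livers were below all others of these stages. Csf1 fell in LAC against NUL (log2 fold change -0.61, SE 0.15, adjusted p = 0.00670) and rose from LAC to ID2 (log2 fold change 0.65, SE 0.16, adjusted p = 0.00596). Il34, the other ligand gene of CSF1R, was not called in the joint test (adjusted p = 0.549). Ccl2, the CCR2 ligand that draws monocytes, was at 0.962, 0.625, 0.827 and 0.486 CPM in NUL and 0.155, 0.361 and 0.104 in LAC (log2 fold change -1.80, SE 0.48, adjusted p = 0.0135). Ccl7, of another CCR2 ligand, was at 0 counts in all 3 LAC livers and at 0.0813, 0.0457, 0.111 and 0.0456 CPM in NUL, and is given without a fold change. Cx3cl1, which encodes the CX3CR1 ligand, was not called (adjusted p = 0.352).

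For the ligands of AXL and MERTK, Gas6 was not called (adjusted p = 0.209), and Pros1, which encodes protein S, rose at ID4 (log2 fold change 0.54, SE 0.10, adjusted p = 0.00146) and ID6 (log2 fold change 0.53, SE 0.09, adjusted p = 0.00177) against NUL. C3, the source of the fragments that VSIG4 binds, was at 10692, 11684, 12914 and 14079 CPM in NUL and 24723, 18647, 20991 and 16436 in ID4 (log2 fold change 0.71, SE 0.13, adjusted p = 0.00139). Hp, haptoglobin, whose complex with hemoglobin CD163 takes up, rose at ID4 (log2 fold change 1.26, SE 0.30, adjusted p = 0.0172). Hamp encodes hepcidin, which closes ferroportin. Hamp was at 1247, 1094, 1071 and 1022 CPM in NUL, 237, 529 and 279 in LAC and 517, 388, 678 and 592 in ID4, lower than in every NUL liver at both stages (log2 fold change -1.67, SE 0.21, adjusted p = 2.12e-05, and -1.03, SE 0.19, adjusted p = 0.00194). Of the 10 ligand genes, 4 fell and 0 rose in LAC, where 6.00% of all tested genes were lower. At ID4 3 rose and 1 fell, where 2.64% of all tested genes were higher and 1.61% lower.

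**Figure D5:**
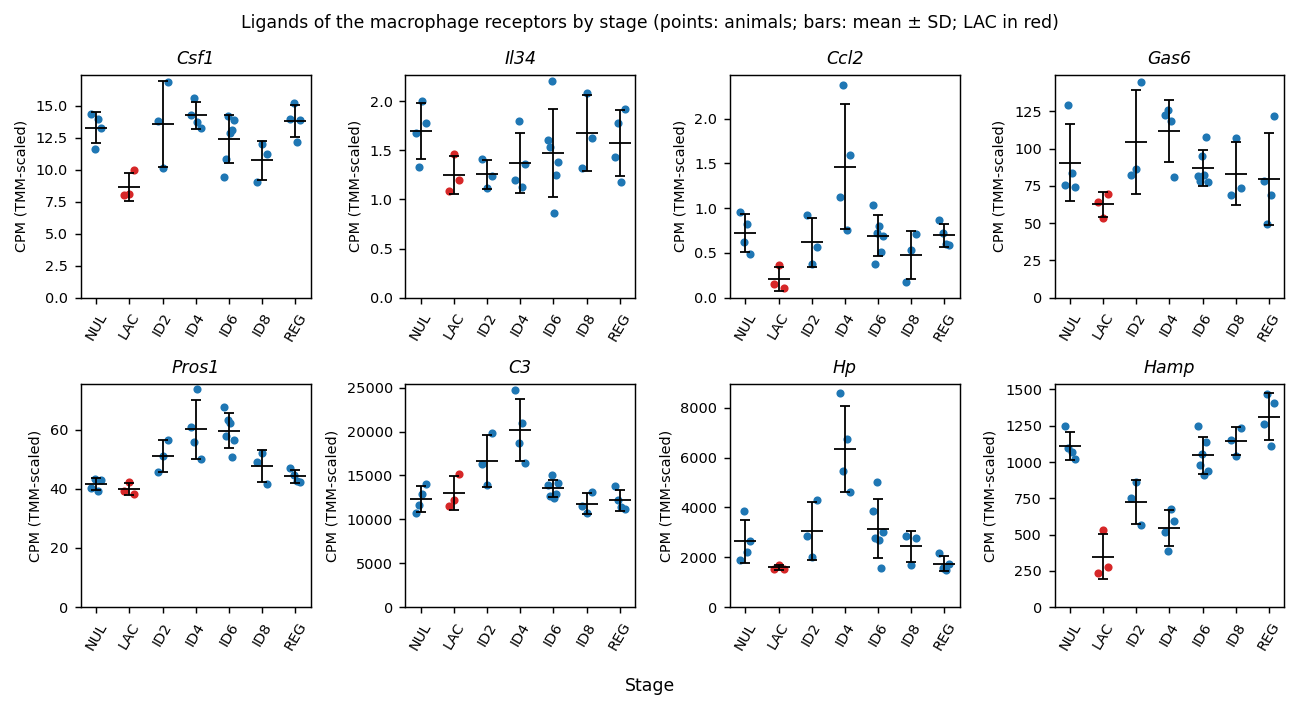
CPM (vertical axes, starting at 0) of 8 ligand genes is shown by stage, with 1 point per animal, the mean and bars of 1 SD. Csf1, Ccl2 and Hamp are lowest in LAC (red), while C3 and Hp are highest in ID4.

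Further macrophage genes outside the 36 were taken from lists written for this comparison, with earlier results of these data known. Of 15 other Kupffer cell genes, 5 fell and 0 rose in LAC (6.00% of all tested genes fell). At ID4 5 rose and 0 fell (2.64% of all tested genes rose). The median log2 fold changes were -0.43 in LAC and 0.47 at ID4. C6, a terminal complement gene, rose at ID4 (log2 fold change 0.72, SE 0.13, adjusted p = 0.00161), as did Il18bp, the inhibitor of interleukin 18 (log2 fold change 0.81, SE 0.14, adjusted p = 8.44e-04). Cd300ld, a surface receptor gene of myeloid cells, fell in LAC (log2 fold change -1.20, SE 0.31, adjusted p = 0.0105). Siglec1, the sialoadhesin of resident macrophages, fell from ID6 to ID8 (log2 fold change -0.72, SE 0.20, adjusted p = 0.0450).

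Of 12 genes of transcription factors that shape Kupffer cells, 4 were called in the joint test (27% of all tested genes), 1 fell in LAC (6.00%), 4 rose from LAC to ID2 (8.48%) and 1 rose at ID4 (2.64%). Of these counts the joint one and that in LAC lie near the share over all genes. Zeb2, which maintains macrophage identity, fell in LAC (log2 fold change -0.70, SE 0.15, adjusted p = 0.00241), and Irf8, needed by monocytes and macrophages, rose at ID4 (log2 fold change 0.67, SE 0.15, adjusted p = 0.00973). Rxra, a partner of many nuclear receptors, also in hepatocytes, rose from LAC to ID2 (log2 fold change 0.37, SE 0.10, adjusted p = 0.0149). Of 12 other monocyte genes, 5 fell and 0 rose in LAC (6.00% of all tested genes fell). At ID4 0 of these 12 were called by edgeR or DESeq2, with 3 at an unadjusted p under 0.05. Plac8 and Treml4, both expressed by monocytes, fell in LAC (log2 fold change -0.57, SE 0.15, adjusted p = 0.0109, and -0.76, SE 0.20, adjusted p = 0.0124).

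Of 12 other lipid-associated genes, 3 rose and 3 fell in LAC, where 5.19% of all tested genes were higher and 6.00% lower. At ID4 5 of them rose, where 2.64% of all tested genes were higher. Fabp5, a fatty acid carrier, and Cd36, a fatty acid receptor, rose in LAC (log2 fold change 2.39, SE 0.40, adjusted p = 5.58e-04, and 1.27, SE 0.20, adjusted p = 2.32e-04), and hepatocytes can express both. Lgals3, galectin 3, and Clec7a, the β-glucan receptor dectin 1, fell in LAC (log2 fold change -0.68, SE 0.20, adjusted p = 0.0267, and -0.89, SE 0.19, adjusted p = 0.00294) and rose at ID4 (log2 fold change 0.79, SE 0.18, adjusted p = 0.00928, and 0.70, SE 0.17, adjusted p = 0.0148). Of 12 activation genes 9 were tested, and 0 were called in LAC or ID4 against NUL, with 2 and 3 at an unadjusted p under 0.05. DESeq2 called 1 lower in LAC and 1 higher at ID4. Il1b, the cytokine interleukin 1β, and Cd86, a co-stimulatory receptor, were called jointly (adjusted p = 0.0154 and 0.00534).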

How the data were processed

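Gene expression was measured by bulk RNA sequencing of 27 mouse livers, 1 library each. Per the submitters' processing notes, STAR 2.6.1a, RSEM 1.3.1 and the mm10 (GRCm38) build were used. Per the file headers, the deposited tables hold an expected count, an estimate of the reads from each gene, and TPM, a deposited value scaled for gene length. The use of strand and any trimming are not given in the sources used here. The effective length in the deposited tables is another value of RSEM, per the file headers, and was not used in any result.

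Expected counts were rounded and analysed with edgeR 4.0.16 in R 4.3.3: filterByExpr kept 16428 genes holding at least 99.978% of counts, TMM scaled the libraries, and 1 quasi-likelihood fit held all 27 libraries and 7 stages, so that every comparison shares 1 estimate of the spread (biological coefficient of variation 0.19). The 11 two-sided comparisons set stages against NUL and against the preceding stage. Calls required an adjusted p (Benjamini-Hochberg, over all tested genes) under 0.05. Comparisons with NUL share the NUL libraries, and those with a stage share its libraries. Intervals at 95% are the log2 fold change ± 1.96 SE. Libraries held 41120650 to 75664540 counts. The 42 pairs of libraries within a stage all differed beyond sampling noise (smallest chi-square 42.4 per gene). Symbols and positions came from GENCODE mouse release M21 on GRCm38, and promoters from RefSeq on GRCm38.p6, for which 8 members have no entry.

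The 36 members and all other lists were chosen with earlier results of these data known, and comparisons may repeat patterns already seen in them. All members are described, and from each other list up to 4 genes called jointly and averaging 1 or more in log2 CPM were named by their spread between stages, and every ligand gene. Some genes that this rule names are not reported here. Alternatives were RLE scaling, DESeq2 1.42.0, no filter, limma 3.58.1 on log2(TPM + 1) and log2(TPM + 0.1), the title number as covariate, only the groups compared, an adjusted p under 0.01, each library left out, and, chosen after seeing the data, the number of sequencing runs as covariate.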

Additional observations from a re-analysis of the deposited data

Results flagged for a closer look

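In 144 stages and genes with 4 to 6 animals, 6 had 1 liver far from the others by Dixon's criterion at the 95% level, where chance marks about 1 in 20. Cd163 was at 28.5 CPM in REG_214, with the nearest REG liver at 21.3. Fcgr1 was at 2.39 CPM in REG_234, and the nearest was at 3.29. Fcgr3 was at 5.09 CPM in ID4_211, below the nearest at 7.08. Tyrobp was at 9.31 CPM in REG_214, below the nearest at 10.0, a small difference in a stage of close values. Mertk was at 15.4 CPM in NUL_226, with the nearest at 10.5. Itgam was at 1.97 CPM in REG_234, with the nearest at 0.967. In REG the marked libraries are REG_214 and REG_234, and 0 members were called there against NUL by edgeR or DESeq2, with 1 at an unadjusted p under 0.05.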

How the results depend on the processing

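Of 82 calls of a member in a comparison, 22 held with each library left out, 33 under the 8 other alternatives at the same threshold and 18 under all of these, and 0 changed direction. Counts of members called differed by over 1.5 times from the values in the report as follows. For ID2 against NUL (2), no filter, log2(TPM + 1), log2(TPM + 0.1) and only the groups compared gave 1, and the title number, the sequencing runs and an adjusted p under 0.01 gave 0. For ID4 against NUL (12), log2(TPM + 1) gave 6, log2(TPM + 0.1) 7, the title number 5 and the stricter threshold 3. For ID6 against NUL (6), DESeq2 gave 14, log2(TPM + 1) and log2(TPM + 0.1) 12, only the groups compared 3 and the stricter threshold 1. For ID2 against LAC (22), the title number gave 7 and the stricter threshold 10, and for ID4 against ID2 (10) the latter gave 3. Between ID6 and ID4 (0), only the groups compared gave 1. For ID8 against ID6 (9), log2(TPM + 1) and log2(TPM + 0.1) gave 17, only the groups compared 2, the stricter threshold 1 and the title number 0. The stricter threshold can only lower a count, and the cause of the other changes was not tested.

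With 1 library left out the counts ran from 30 to 33 in the joint test, 13 to 23 for LAC against NUL, 0 to 2 for ID2 against NUL, 4 to 14 for ID4 against NUL, 2 to 12 for ID6 against NUL, 8 to 20 for ID2 against LAC, 2 to 11 for ID4 against ID2 and 0 to 10 for ID8 against ID6, and were 0 in the other 4 comparisons. No paired analysis was possible because the groups share no replicate numbers. Ly6c2, Trem2 and Itgax average under 1 CPM, which limits what can be detected.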
